A study of Mus musculus with 10 samples.

Results

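The genotype difference described here is that between mice with and without Pdgfc in distal colorectum that had not been irradiated. It rests on 4 of the 10 arrays of the series, all those of unirradiated tissue: 2 labelled Pdgfc+/+ (wild type) and 2 labelled Pdgfc-/- (knockout). All mice were C57BL/6J, and tissue was taken about 1 cm above the anus. The other 6 arrays, 3 of each genotype, came from tissue taken 8 weeks after a local γ-ray dose of 25 Gy (2.14 Gy/min). They entered the estimate of the spread between arrays, and a separate comparison at the end. The labels call the replicates biological. They do not give the age or sex of the mice or the deleted part of the gene, and the wild types are not said to be littermates.

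Pdgfc encodes PDGF-C, a growth factor secreted in an inactive form and released from its inhibitory domain by proteases such as tissue plasminogen activator. It acts mainly through PDGF receptor alpha, which in the gut is carried by fibroblasts and other mesenchymal cells beneath the epithelium. The gene lists with the most called members here belong to another system. Interferons, above all the gamma interferon of T and NK cells, make epithelial cells and leukocytes produce GTPases that attack intracellular microbes, chemokines that recruit T cells, and the class II transactivator Ciita. Ciita in turn switches on the MHC class II genes, whose products present peptides to CD4+ T cells.

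Signals were log2 values from the MAS5 algorithm, which are imprecise for dim genes. Array medians lay at 6.64 and 6.80 in wild type and at 7.01 and 6.80 in knockout. The log2 difference between the 3′ and 5′ Gapdh control probe sets, a sign of RNA integrity, was 0.02 and -0.32 in wild type and -0.22 and -0.23 in knockout. Xist, the X-inactivating RNA of female cells, was low on all 4 arrays, at 6.52 and 6.19 in wild type and 7.27 and 6.50 in knockout, and the Y-linked Uty lay between 7.67 and 8.20. Defining transcripts of colon were present on every array: the mucin Muc2 and the colonocyte carbonic anhydrase Car1 read 14.39 to 14.88 and 13.52 to 15.05.

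Without Pdgfc, transcripts of interferon response and of MHC class II presentation fell, and a smaller number of transcripts rose, 3 of them from the xenobiotic metabolism list. A gene was called changed at a Benjamini-Hochberg adjusted p under 0.05 in limma over all 12568 genes tested. Of these, 154 were called (1.23%): 101 were lower in knockout (0.804%) and 53 higher (0.422%). The genes that fell had a median log2 difference of -2.32, and 89 of them differed at least 2-fold. Those that rose had a median of 1.36, and 47 differed at least 2-fold. Striated muscle markers, with 0 of 23 called, had a median difference of 3.14. The arrays of the 2 genotypes did not overlap for any of the 154, but this also held for 47.8% of all genes tested, 18.9% lower and 28.9% higher. Over all genes the median difference was 0.07 (43.1% were below 0). After quantile normalization 76.7% of the called genes were lower, against 65.6% as deposited. Single arrays carried weight. Leaving out replicate 2 of the unirradiated wild types gave 70 calls, and leaving out replicates 1 and 2 of the unirradiated knockouts gave 49 and 41. The count of 154 calls became 257 and 99 when replicates 2 and 3 of the irradiated knockouts were left out, and 100 when replicate 2 of the irradiated wild types was. Leaving out 1 array could not change the sign of a called difference, because the groups did not overlap. With the mean of probe sets, which could, 0 changed sign.

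**Figure D1:**
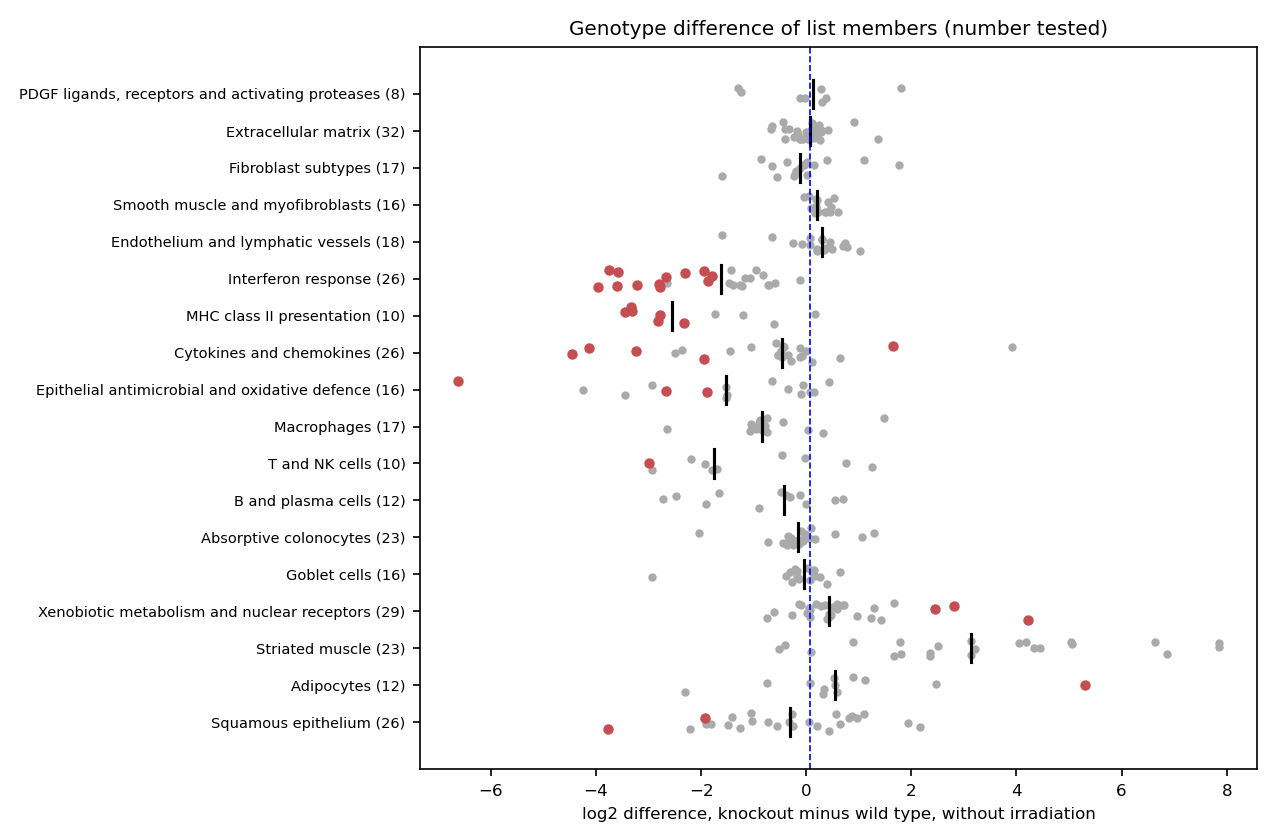
Log2 difference between unirradiated knockout and wild type (horizontal axis) for the tested members of 18 gene lists, whose number is given in brackets. Each point is a gene, red where its adjusted p was under 0.05; black bars are list medians and the dashed line is the median of all genes, 0.07. The interferon response and MHC class II lists sit left of that line, at medians of -1.63 and -2.55, and striated muscle sits right of it, at 3.14. Of the 23 muscle genes, 3 lay above the array median on all 4 arrays.

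Pdgfc itself was dim. On its brighter probe set it read 7.01 and 7.50 in wild type and 6.42 and 5.62 in knockout, a difference of -1.23 ± 0.40 (SE, adjusted p = 0.16). On its other probe set it read 7.55 and 7.76 against 6.06 and 5.40, and there the difference of -1.93 passed the threshold (adjusted p = 0.0204 with all probe sets tested). Both knockout arrays thus lay below both wild-type arrays on each probe set. Where the probe sets lie relative to the deletion is not given, so the remaining signal does not test it. Of the 8 tested genes of the PDGF list (ligands, receptors and activating proteases), 0 were called, and their median difference was 0.12.

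Among the ligands, Pdgfd, whose product acts through PDGF receptor beta and is activated by proteolysis like PDGF-C, had the largest difference. It read 6.73 and 6.95 in wild type and 8.30 and 8.99 in knockout, a difference of 1.80 ± 0.44 (SE) that missed the threshold (adjusted p = 0.088). The knockout arrays were the higher ones, without overlap. In a fit of the 4 unirradiated arrays alone, which called 0.762% of its 11283 genes higher and 1% lower (1.76% in all), 1 member of the list was called higher. Pdgfa and Pdgfb, the ligands made without a regulatory domain, differed by 0.30 ± 0.19 and -0.03 ± 0.29 (SE, adjusted p = 0.47 and 0.98). Of the receptors, Pdgfra read 8.65 and 9.32 in wild type and 8.73 and 9.01 in knockout, so that its groups overlapped (-0.12 ± 0.31 SE). Pdgfrb differed by 0.38 ± 0.28 and the coreceptor Nrp1 by 0.28 ± 0.31 (SE). Plat, the tissue plasminogen activator that releases active PDGF-C, read 8.77 and 9.33 against 8.04 and 7.48. Its difference of -1.29 ± 0.39 (SE) also missed the threshold (adjusted p = 0.14).

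**Figure D2:**
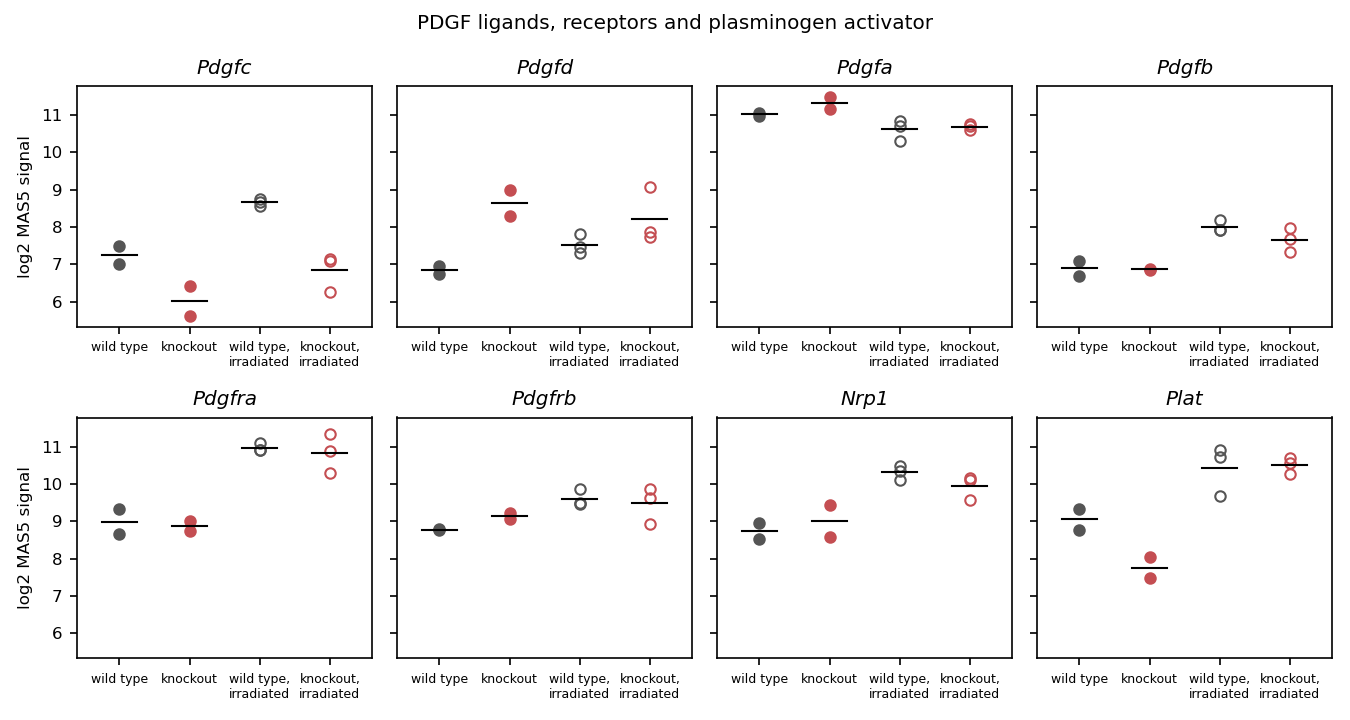
Log2 signal of the 8 tested PDGF list genes on all 10 arrays: filled points are unirradiated, open points irradiated, grey wild type, red knockout, and bars are group means (n = 2 without and n = 3 after irradiation). Pdgfc lies lower in knockout in both conditions, Pdgfd lies higher in unirradiated knockout, and the unirradiated Pdgfra arrays overlap.

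Lists of the cells and processes that PDGF signals reach gave no called gene. None of 32 extracellular matrix genes passed (median 0.07), nor any of 17 fibroblast markers (-0.12), 16 smooth muscle genes (0.21), 7 pericyte markers (0.41) or 18 vessel markers (0.31). At an unadjusted p under 0.05 there were 2, 2, 2, 1 and 5, against 16.6% of all genes. In the same order, 19, 6, 15, 7 and 14 genes lay above 0 (43.1% of all genes lay below). Higher without overlap were 6, 2, 10, 4 and 9, against 28.9% of all genes. Lower without overlap were 6, 4, 0, 0 and 3, against 18.9%. In the fit of the 4 arrays alone, 1 gene of the fibroblast list and 1 of the vessel list were called lower. Both lists hold Pdpn, so these calls may be of the same gene. The matrix gene with the smallest p, the proteoglycan Ogn, differed by 0.91 ± 0.27 (SE, adjusted p = 0.14). Of the fibroblast list, the membrane glycoprotein Pdpn differed by -1.59 ± 0.39 and the transcription factor Sox6, of subepithelial fibroblasts, by 1.77 ± 0.46 (SE, adjusted p = 0.087 and 0.097). TGF-beta pathway genes were called in 0 of 22 (median 0.14), with the inhibitory Smad7 at 0.84 ± 0.21 (SE, adjusted p = 0.091). Immediate-early and growth factor response genes, which receptor signalling induces within minutes, were called in 0 of 26 (median -0.49), and 22 of the 26 lay below 0. Fos, of the AP-1 factor, was the member with the smallest p, at -1.22 ± 0.27 (SE, adjusted p = 0.07). Of 13 tested genes that neighbour Pdgfc on its chromosome, 0 were called (median 0.17).

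The interferon response list held 12 of the called genes, all lower in knockout, among 26 tested. All 26 differences were below 0, with a median of -1.63. The immunity-related GTPase Igtp read 12.86 and 11.66 in wild type and 8.80 and 8.51 in knockout. Both knockout arrays lay far below, a 12.2-fold lower mean signal (-3.61 ± 0.41 SE, adjusted p = 0.0042). Iigp1, of the same family, read 12.36 and 11.42 against 8.36 and 7.50 (-3.97 ± 0.39, adjusted p = 0.00189). Irgm1, which regulates those GTPases, fell by 1.87 ± 0.22. The guanylate-binding proteins Gbp6, Gbp2, Gbp7 and Gbp3, which act on the vacuoles of intracellular pathogens, fell by 3.58, 2.32, 1.94 and 1.79. The antiviral genes Ifit2, Ifit1, Oasl2, Oas3 and Rsad2 fell by 3.76, 3.22, 2.80, 2.78 and 2.66. With a pseudocount of 64 added to the linear signal before taking log2, which damps differences of dim genes, Oas3 was at -1.84 (adjusted p = 0.0376). Irf9, Irf1 and Stat2, factors that carry the interferon signal to the genome, did not pass: their differences were -0.96, -1.17 and -1.43 (adjusted p = 0.0501, 0.079 and 0.14). Irf7, the factor of the type I interferon loop, was at -0.12. Replicate 1 of wild type was the higher of the pair for 25 of the 26 genes, and the list mean was 10.82 and 9.88 in wild type against 8.47 and 8.40 in knockout. The number called lower was 6 without replicate 1 and 5 without replicate 2 of unirradiated knockout. Igtp, Iigp1, Gbp6 and Ifit2 were called whichever of the 4 arrays was left out. Gbp and Irg genes are close paralogs, so a probe set may read more than its own gene.

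Upstream bases of some called interferon genes are shown because these genes fell together and their class carries a known element. The interferon-stimulated response element was searched as GAAA, any 2 bases and GAAA again, on both strands, in windows of 300 bases around RefSeq gene starts of GRCm38.p6. It occurred in 8 of the 10 called interferon genes with a window, and in 14 of 76 among all genes that fell (18.4%). The 10 genes are part of the 76 and were listed as interferon response genes, so the 2 shares are not separate evidence. Among genes that rose it occurred in 0 of 43, among the genes tested in 3.83% and among all 27025 genes of the table in 3.99%. Such matches describe letters, not bound sites. The stretches lie at chr11:58199497-58199555 (plus strand) for Igtp, chr11:48871421-48871475 (minus) for Irgm1, chr3:142620579-142620638 (plus) for Gbp2, chr3:142559974-142560033 (plus) for Gbp3, chr19:34640760-34640819 (plus) for Ifit1 and chr12:26456538-26456597 (minus) for Rsad2. They are given 5′ to 3′ on the gene's strand, with the element in capitals. The stretches of Gbp7 and Oas3, with 1 match each, are not shown.
Igtp: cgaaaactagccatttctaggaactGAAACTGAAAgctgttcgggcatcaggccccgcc
Irgm1: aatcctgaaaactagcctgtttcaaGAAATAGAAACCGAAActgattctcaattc
Gbp2: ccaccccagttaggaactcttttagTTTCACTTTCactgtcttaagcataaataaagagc
Gbp3: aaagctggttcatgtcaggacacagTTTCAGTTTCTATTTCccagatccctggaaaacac
Ifit1: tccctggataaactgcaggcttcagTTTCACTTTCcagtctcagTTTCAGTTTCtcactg
Rsad2: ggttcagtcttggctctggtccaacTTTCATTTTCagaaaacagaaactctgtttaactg

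Ifit1, Gbp3 and Irgm1 hold 2 matches in the stretch shown, and those of Gbp3 and of Irgm1 overlap. The gamma-activated site, searched as TTCNNNGAA, occurred in 3 of the 10 interferon genes and in 17.1% of all genes that fell. It was in 14.0% of those that rose, 8.2% of the genes tested and 9.55% of the table.

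MHC class II presentation was the list with the largest share of called genes: 6 of 10 tested fell, 0 rose, and the median difference was -2.55. H2-Eb1, the beta chain of the E molecule, read 13.73 and 13.57 in wild type and 10.99 and 10.74 in knockout. The spread within each genotype was small beside the 6.89-fold lower signal of knockout (-2.78 ± 0.18 SE, adjusted p = 0.000277). H2-Ab1 and H2-Aa, the chains of the A molecule, fell by 3.33 ± 0.28 and 2.32 ± 0.26. Cd74, the invariant chain that guides class II molecules to endosomes, read 14.13 and 13.99 against 11.54 and 10.92 (-2.83 ± 0.24 SE, adjusted p = 0.000616). H2-DMa, which helps load the peptide, fell by 3.32 ± 0.34. Ciita, the transactivator of the class, read 9.22 and 8.43 in wild type and 4.97 and 5.79 in knockout (-3.45 ± 0.37 SE, adjusted p = 0.00276). Both Ciita values in knockout lay below the array median, where signals are imprecise. With a pseudocount of 64 the Ciita difference was -2.29, and on the probe set brightest without irradiation it was -2.06 (adjusted p = 0.0074 and 0.0166). These 6 genes were called whichever of the 10 arrays was left out. The protease gene Ctss, which trims the invariant chain, did not pass, at 13.13 and 13.03 against 13.42 and 13.06.

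The Y box of class II promoters, searched as CTGATTGG on both strands, is shown for the 2 of 3 called class II genes with a window that hold it (4.7% of all genes of the table do). It was in 7.89% of all genes that fell, 11.6% of those that rose and 6.2% of the genes tested. The stretches lie at chr17:34287842-34287899 (minus strand) for H2-Aa and at chr17:34305780-34305837 (plus strand) for H2-Eb1 in GRCm38.p6, with the box in capitals.
H2-Aa: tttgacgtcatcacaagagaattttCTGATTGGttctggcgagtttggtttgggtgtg
H2-Eb1: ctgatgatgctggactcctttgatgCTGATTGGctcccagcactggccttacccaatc

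**Figure D3:**
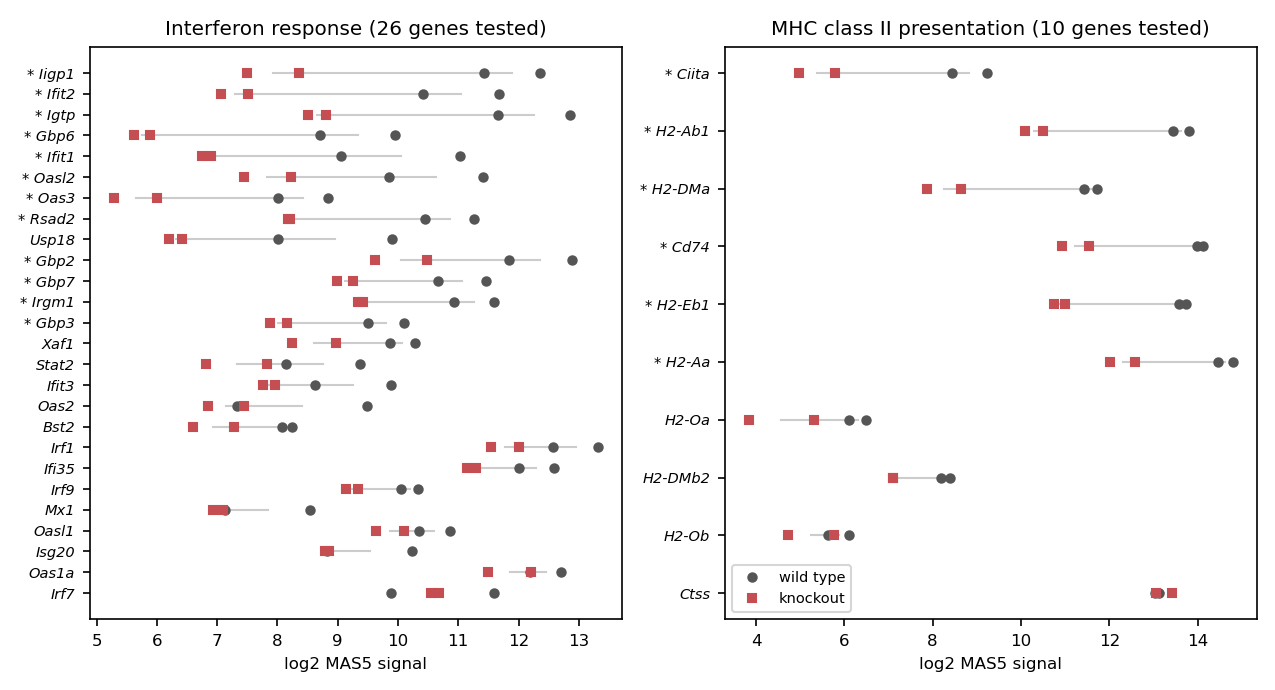
Log2 signal of every tested gene of the interferon response (left, 26 genes) and MHC class II (right, 10 genes) lists on the 4 unirradiated arrays, ordered by difference; circles are the 2 wild-type arrays, squares the 2 knockout arrays, grey lines join group means, and asterisks mark genes with an adjusted p under 0.05. Knockout squares lie left of the wild-type circles for all 12 and 6 genes marked. In all they do so for 22 of the 26 and 8 of the 10 genes, and overlap the circles for the others, Irf7 and Ctss among them.

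Some called genes outside these lists are known to answer the same cytokines. By the rule for named genes these include Ubd, a ubiquitin-like modifier, which read 11.95 and 11.41 in wild type and 8.02 and 7.17 in knockout (-4.09 ± 0.43 SE, adjusted p = 0.00264). Nlrc5, the transactivator of MHC class I genes, read 10.60 and 10.13 against 7.27 and 6.47 (-3.50 ± 0.29, adjusted p = 0.000616). Both were called whichever array was left out. Ido1, which degrades tryptophan, fell by 3.49 ± 0.54, the class I gene H2-Q5 fell by 4.31 ± 0.64, and Il18bp, an inhibitor of the cytokine Il18, fell by 4.07 ± 0.69. H2-Q5 was dim in knockout, and its difference was -2.19 with a pseudocount of 64 (adjusted p = 0.045). Chosen after their values were seen, the peptide transporter Tap1 and the immunoproteasome subunits Psmb9 and Psmb8 fell by 2.69 ± 0.40, 2.55 ± 0.33 and 2.37 ± 0.32. The proteasome activator Psme1, likewise chosen, fell by 0.84 ± 0.15. Left out in turn, single unirradiated arrays took Ido1, H2-Q5 and Il18bp to adjusted p of up to 0.112, 0.0826 and 0.0921, and Tap1, Psmb9, Psmb8 and Psme1 to 0.0917, 0.0617, 0.0613 and 0.163.

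Of 26 tested cytokine and chemokine genes 4 fell and 1 rose (median -0.46). Cxcl9, a chemokine that gamma interferon induces and that attracts T cells, read 7.03 and 7.69 in wild type and 2.96 and 3.48 in knockout. It lay above its array median in wild type only, and fell by 4.14 ± 0.30 (SE, adjusted p = 0.000328). Ccl8, a chemokine for monocytes and T cells, read 10.30 and 10.44 against 8.43 and 8.41 (-1.95 ± 0.14, adjusted p = 0.000328). Both were called whichever array was left out. Cxcl10 and Ccl5, chemokines for T cells, fell by 3.23 ± 0.61 and 4.45 ± 0.80, to dim levels in knockout, with adjusted p of up to 0.169 and 0.156 without 1 unirradiated array. With a pseudocount of 64 the differences of Cxcl9, Cxcl10 and Ccl5 were -1.64, -1.43 and -2.10 (adjusted p = 0.0116, 0.0376 and 0.153). The member that rose was Il15, a cytokine that sustains intraepithelial T and NK cells. It read 8.47 and 8.07 in wild type and 10.10 and 9.75 in knockout, a 3.15-fold higher signal (1.65 ± 0.19 SE, adjusted p = 0.0042), and was called whichever array was left out. Ifng, the gamma interferon gene, was too dim to be tested, at 5.23 and 4.64 in wild type and 2.12 and 1.74 in knockout.

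Leukocyte markers moved in part with these genes. In bulk tissue, fewer cells of a type and less RNA per cell cannot be told apart. Macrophage markers had a median of -0.83 with 0 of 17 called and 14 below 0. At an unadjusted p under 0.05 there were 12 of the 17, and 13 were lower without overlap, against 16.6% and 18.9% of all genes. Their summed linear signal was 11873 and 10168 in wild type and 5844 and 8947 in knockout. The scavenger receptor Cd163 had the smallest p (-2.64 ± 0.55 SE, adjusted p = 0.057), and the efferocytosis receptor Mertk differed the other way (1.49 ± 0.40, adjusted p = 0.11). Of 10 tested T and NK cell markers 1 fell, the cytotoxic granzyme Gzmb, from 7.06 and 7.01 to 3.97 and 4.12 (-2.99 ± 0.50 SE, adjusted p = 0.0228). At an unadjusted p under 0.05 there were 7 of the 10. The list's median was -1.75, but its summed signal overlapped, at 1251 and 1483 in wild type and 1620 and 1194 in knockout, and the T cell markers Cd3e and Cd4 were too dim to be tested. The call of Gzmb ended without any 1 of the 4 unirradiated arrays (adjusted p of up to 0.155) and with a pseudocount of 64 (-1.28, adjusted p = 0.172). B and plasma cell markers were called in 0 of 12 (median -0.43, 3 at an unadjusted p under 0.05). Their summed signal was 41463 and 36244 against 8111 and 20563, led by the antibody gene Igha at 14.73 and 14.21 in wild type and 10.41 and 13.56 in knockout (adjusted p = 0.14). Outside the list the immunoglobulin segment Igkv8-30 fell by 3.07 ± 0.45. The part of these cell types in the interferon and class II differences was not tested.

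**Figure D4:**
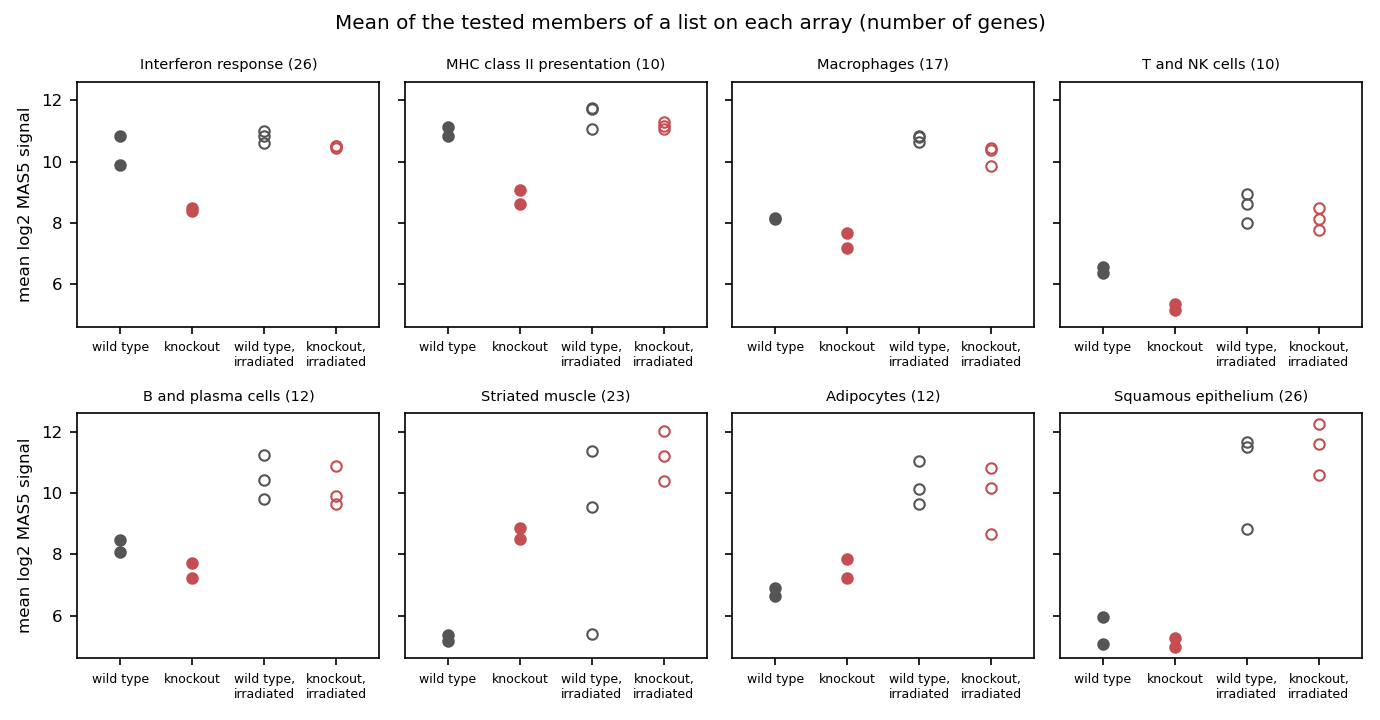
Mean log2 signal of the tested members of 8 lists on each of the 10 arrays (filled points unirradiated, open points irradiated, grey wild type, red knockout; number of genes in brackets). The unirradiated knockout arrays lie at 8.47 and 8.40 for interferon response against 10.82 and 9.88 in wild type, and at 8.87 and 8.49 for striated muscle against 5.16 and 5.38.

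Epithelial defence genes had 3 lower and 0 higher of 16 tested (median -1.52). Only 6 of the 16 lay above the array median on all 4 arrays, so the list median is imprecise. The summed linear signal of the list overlapped, at 159365 and 108226 in wild type and 108753 and 128519 in knockout. Reg3g, an antimicrobial lectin secreted by the epithelium, read 10.20 and 7.37 in wild type and 1.93 and 2.40 in knockout (-6.62 ± 1.23 SE, adjusted p = 0.0383). The wild-type arrays lay far apart, and the knockout values were too dim for the size to be firm. With pseudocounts of 16 and 64 the difference was -4.50 and -2.96 (adjusted p = 0.108 and 0.227). As deposited, the call ended without any 1 of the 4 arrays (adjusted p of 0.0544 to 0.241). Duoxa2, which matures a hydrogen peroxide-producing oxidase, fell by 1.89 ± 0.30, and its call too ended without any 1 of them (up to 0.135). Pla2g2a, a bactericidal phospholipase gene that is disrupted in C57BL/6 mice, read 8.92 and 9.25 against 6.20 and 6.65 (-2.66 ± 0.27, adjusted p = 0.00204), and was called whichever array was left out.

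The largest fall of the named genes was that of Plet1, a surface protein of epithelial cells. It read 13.99 and 12.98 in wild type and 7.16 and 5.34 in knockout (-7.24 ± 0.60 SE, adjusted p = 0.000616). Wild type was among the brighter signals of the array and knockout was near or below the array median. A further probe set of Plet1 had -8.87, and the remaining one -1.62. Hal, which degrades histidine, read 7.49 and 7.44 against 1.94 and 1.78 (-5.60 ± 0.41, adjusted p = 0.000328). Its knockout values were too dim for the size to be firm: with a pseudocount of 64 the difference was -1.83 (adjusted p = 0.0507). The leucine-rich glycoprotein gene Lrg1 and the sialyltransferase gene St3gal4 fell by 4.82 ± 0.95 and 4.53 ± 0.88, with adjusted p of up to 0.139 and 0.242 without 1 array. Aqp4, the water channel of surface epithelium, read 12.94 and 12.65 in wild type and 9.02 and 10.40 in knockout, and was the only 1 of 24 salt and water transport genes called (-3.08 ± 0.51 SE, adjusted p = 0.0219, up to 0.163 without 1 array). Cdkn1a, the cell cycle inhibitor p21, was the only 1 of 18 p53 targets called, at 13.42 and 13.27 against 12.29 and 12.44 (-0.99 ± 0.15, adjusted p = 0.0147, up to 0.135). Nfil3, a repressor of clock output, was the only 1 of 18 clock genes called (-1.72 ± 0.32, adjusted p = 0.0386, up to 0.191). It lay below the array median on all 4 arrays, at 6.12 and 5.95 against 4.25 and 4.38, and with a pseudocount of 64 its difference was -0.63 (adjusted p = 0.223). Of 26 squamous epithelium markers 2 fell, Sfn by 1.92 ± 0.28 and Sprr1a by 3.78 ± 0.72 (up to 0.087 and 0.257). The median of that list was -0.30 and its summed signal was 5631 and 9204 in wild type against 4150 and 4446 in knockout.

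Markers of the main epithelial cell types were not called. None of 23 absorptive colonocyte genes passed (median -0.15), nor any of 16 goblet cell genes (-0.05), 12 enteroendocrine genes (-0.01), 6 tuft cell genes (0.19) or 16 crypt stem and regenerative genes (0.34). At an unadjusted p under 0.05 there were 4, 1, 1, 0 and 2. In the fit of the 4 arrays alone, 1 colonocyte gene was called lower. Proliferation genes were called in 0 of 30 (median -0.40), and cholesterol and fatty acid synthesis genes in 0 of 23 (-0.48). Of these 2 lists 25 and 20 genes lay below 0, against 43.1% of all genes. Lower without overlap were 10 and 12 (18.9% of all genes), and higher 1 and 0 (28.9%). At an unadjusted p under 0.05 there were 6 and 7 (16.6%).

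Among the genes that rose, the xenobiotic metabolism list had 3 of 29 called and 0 lower (median 0.43, with 24 above 0). Cyp2c55, a cytochrome P450 of the colon that oxidises fatty acids and drugs, read 8.89 and 9.26 in wild type and 13.37 and 13.24 in knockout. Each pair agreed closely, and the knockout signal was 18.7-fold higher (4.22 ± 0.56 SE, adjusted p = 0.00792). Its relative Cyp2c65 read 6.45 and 7.67 against 9.33 and 9.70 (2.45 ± 0.48, adjusted p = 0.0459), and the aldo-keto reductase Akr1c19 read 9.60 and 9.62 against 12.11 and 12.73 (2.81 ± 0.47, adjusted p = 0.0219). Cyp2c genes are close paralogs. Outside the list, the deacetylase gene Aadac, which hydrolyses drug esters, read 5.44 and 4.96 in wild type and 9.34 and 10.16 in knockout (4.55 ± 0.77 SE, adjusted p = 0.0239). Without replicate 1 or 2 of unirradiated knockout the list had 0 called, and Cyp2c55, Cyp2c65, Akr1c19 and Aadac had adjusted p of up to 0.0656, 0.215, 0.135 and 0.135.

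The largest rise past the threshold was that of Car3, a carbonic anhydrase abundant in muscle and fat, from 6.91 and 7.02 to 12.45 and 12.09 (5.31 ± 0.25 SE, adjusted p = 2.78e-05). It was called whichever array was left out, but not with the mean of its probe sets (3.90, adjusted p = 0.0563). Striated muscle markers moved with it. Their summed linear signal was 7330 and 7130 in wild type and 24946 and 18325 in knockout, and the median difference of 23 tested markers was 3.14, with 0 called. Of the 23, 20 were higher without overlap and 1 was lower (28.9% and 18.9% of all genes were). Ttn, the giant spring protein of the sarcomere, read 1.76 and 1.06 in wild type and 9.71 and 8.81 in knockout (7.85 ± 1.96 SE, adjusted p = 0.0906). Its wild-type values were too dim for the size to be firm. Only 3 of the 23 markers lay above the array median on all 4 arrays, so the list median is imprecise too. In the fit of the 4 unirradiated arrays alone 16 muscle markers were called higher, and without replicate 3 of irradiated wild type 12 were. The irradiated arrays, which enter the spread, had list means of 11.37, 9.55 and 5.40 in wild type. In irradiated knockout these were 11.20, 10.40 and 12.01. Adipocyte markers other than Car3 had summed signals of 3897 and 4772 against 5466 and 4577, with overlap. The median over the 12 tested adipocyte markers, Car3 included, was 0.55, with 10 above 0 and 8 higher without overlap (28.9% of all genes were). The part of muscle in the rise of Car3 was not tested.

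Other named genes that rose, given here in part, differed in brightness. Adssl1 and Gpr176 lay below the array median on all 4 unirradiated arrays. Their differences with a pseudocount of 64 were 1.03 and 0.82 (adjusted p = 0.336 and 0.13). The next 7 genes had moderate signals. Pm20d1, an enzyme that makes N-acyl amino acids, rose by 2.74 ± 0.49, the colipase gene Clps by 2.12 ± 0.37 and the prostaglandin E receptor gene Ptger3 by 1.96 ± 0.35. The histone deacetylase gene Hdac11 rose by 1.72 ± 0.27 and Gab1, an adaptor of growth factor receptors, by 1.52 ± 0.20. The thyroid hormone carrier Ttr read 11.24 and 11.48 in wild type and 12.60 and 12.64 in knockout (1.26 ± 0.16 SE, adjusted p = 0.00641). Slc35e3, a member of the nucleotide sugar transporter family, rose by 1.44 ± 0.17 (adjusted p = 0.00467). Of these 7 genes Slc35e3 alone was called whichever array was left out. The others had adjusted p of up to 0.219, 0.241, 0.249, 0.171, 0.065 and 0.0548 without 1 unirradiated array.

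The 6 irradiated arrays allowed a look at the same genes in other mice. No gene was called between the genotypes after irradiation (0 of 12568 in limma, 500 or 3.98% at an unadjusted p under 0.05). The irradiated wild-type arrays all had the female Xist pattern and the irradiated knockout arrays had it on 1 of 3, so sex and genotype cannot be fully told apart there. Of the 101 genes that fell without irradiation, 64 also lay below 0 after it, with a median of -0.07, against 49.3% of all genes. Of the 53 that rose, 33 lay above 0, with a median of 0.06. The interferon list had a median of -0.24 and the class II list of -0.21 in irradiated tissue. Igtp lay at 12.22 to 13.37 in irradiated wild type and at 12.68 to 13.04 in irradiated knockout, and H2-Eb1 at 13.71 to 14.25 and 13.66 to 13.83. The irradiated knockout values of both genes thus overlapped those of irradiated wild type. Ubd lay at 11.22 to 12.58 in irradiated wild type and 9.79 to 10.09 in irradiated knockout (-2.12 ± 0.35 SE, adjusted p = 0.554). Cyp2c55 lay at 6.61 to 8.13 and at 8.84 to 10.44, again higher in knockout (2.53 ± 0.46 SE, adjusted p = 0.688).

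Whether the genotype difference itself differed between the conditions was tested with the interaction term, which contains the unirradiated difference. It was past the threshold for 26 genes (0.207% of those tested), all of them among the 154, 22 that fell and 4 that rose. They included 5 of the class II list and 6 of the interferon list. Xist was low on all unirradiated arrays, and the irradiated wild types all had its female pattern. Sex and irradiation can therefore not be fully told apart in these terms. Car3 had the largest negative term, -5.32 ± 0.33 (SE, adjusted p = 0.000302): it lay at 13.94 to 14.78 on all 6 irradiated arrays. For Plet1 the term was 6.06 ± 0.78 (adjusted p = 0.0169), and for H2-Eb1 2.59 ± 0.24 (adjusted p = 0.00406). Neither Ubd nor Cyp2c55 passed (adjusted p = 0.286 and 0.455). The count was 14 without replicate 1 or 2 of unirradiated knockout, 15 and 16 without replicates 3 and 1 of irradiated knockout.

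**Figure D5:**
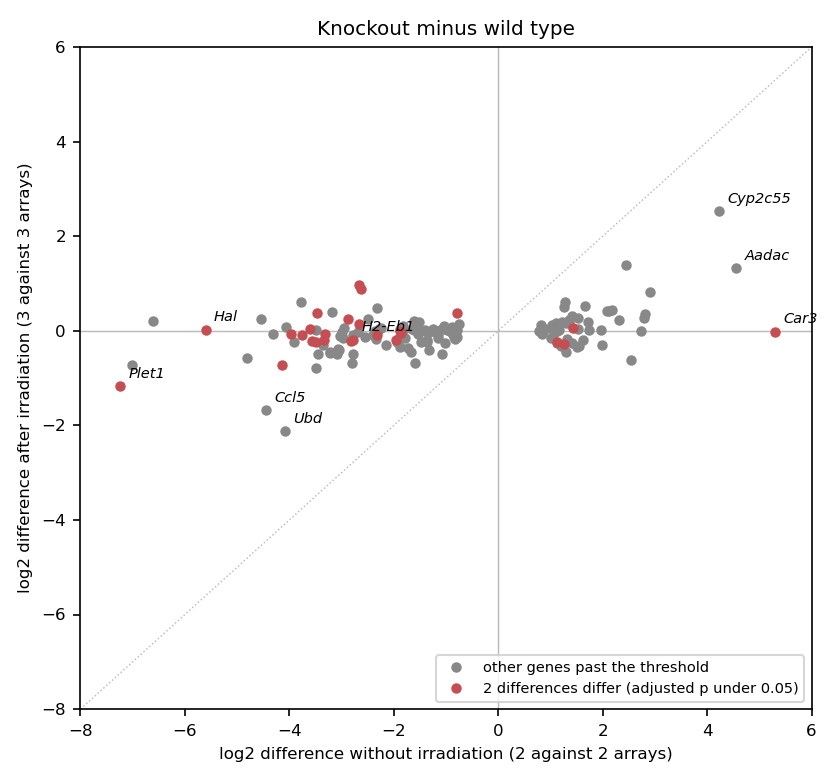
Log2 genotype difference of the 154 called genes without irradiation (horizontal axis, 2 against 2 arrays) and after it (vertical axis, 3 against 3 arrays); red marks the 26 genes whose 2 differences differ at an adjusted p under 0.05, and the dotted line marks equality. Most points lie near 0 on the vertical axis, while Ubd, Ccl5, Cyp2c55 and Aadac lie away from it on the same side in both.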

How the data were processed

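RNA of 10 distal colorectum samples, 1 array each, was measured on Affymetrix whole-genome mouse arrays. The deposited values are log2 signals that the authors computed with MAS5, per the series' design text and the submitters' processing notes, with the MAS5 version not given in the sources used here; no further normalization was applied here. Of 45101 probe sets, 64 were controls, 34945 had 1 gene symbol, 932 several and 9160 none. A gene was represented by its brightest probe set over the 10 arrays and tested where it exceeded the array median on at least 2 arrays (12568 of 18193 genes).

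All 10 arrays were fitted together in limma 3.58.1 (R 4.3.3) with 1 mean per group, 6 residual degrees of freedom and an intensity trend, and p-values were Benjamini-Hochberg adjusted over all genes. Differences are knockout minus wild type, and the errors are standard errors of the fit. With 2 arrays per group, the number of arrays limits precision, and p-values measure only the spread between these samples. Scan dates are not given in the sources used here, so no batch was tested. The script was tested on simulated data.

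Named genes were the PDGF list, the 15 largest rises and falls past the threshold without overlap, the same 10 among genes above the array median on all 4 arrays, the 5 smallest p in each direction, up to 6 called members of each list (2 by smallest p where none passed) and the 5 smallest interaction p; clone names were left out. The members and gene lists were chosen with earlier results of these data known. Alternatives were quantile normalization, pseudocounts, filters, probe set rules, a fit of the 4 arrays, a replicate block and leaving out each array. Promoters came from RefSeq (GRCm38.p6).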

Additional observations from a re-analysis of the deposited data

Results flagged for a closer look

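The genotype difference differed between irradiated and unirradiated tissue, by the interaction term of limma (irradiated minus unirradiated difference, adjusted p under 0.05), for 20 genes described here. Among class II genes the term was 2.59 for H2-Eb1, 2.6 for Cd74, 3.13 for H2-Ab1, 3.25 for H2-DMa and 2.24 for H2-Aa. In the interferon list it was 3.9 for Iigp1, 3.36 for Gbp6, 3.64 for Igtp, 3.66 for Ifit2, 2.8 for Rsad2 and 1.83 for Irgm1. For the class I transactivator Nlrc5 it was 3.26, and for the chemokines Ccl8 and Cxcl9 it was 1.76 and 3.41. Among the other genes that fell it was 3.62 for Pla2g2a, 5.62 for Hal and 6.06 for Plet1. Among those that rose it was -5.32 for Car3, -1.55 for Ttr and -1.37 for Slc35e3. All of these terms oppose the unirradiated difference. That sign is largely built in, because the genes were called for a large unirradiated difference and the term subtracts it. The sexes of the irradiated groups were not balanced. No unirradiated array had the female Xist pattern, so sex and irradiation cannot be fully told apart.

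Probe sets that carry no gene name were in no comparison above. Of 3128 such probe sets tested, 27 were past the threshold without irradiation, 17 lower and 10 higher in knockout. That share, 0.863%, was below the 1.07% of all 25883 probe sets tested.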

How the results depend on the processing

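The 154 calls without irradiation lay between 41 and 257 when 1 array was left out, those higher in knockout between 6 and 100 and those lower between 35 and 157. Where 1 array of a group remained, its spread was taken to be that of the rest. Over the same fits 0 to 3 genes were called after irradiation and 14 to 35 in the interaction. The interferon list had 5 to 14 genes lower (median -2.14 to -1.46) and the class II list 6 to 6 (median -2.76 to -2.28). Quantile normalization gave 30 genes higher, and the 4 arrays fitted alone gave 86 higher (199 called in all, of which 109 were among the 154). Testing every probe set gave 276 calls, 101 higher and 175 lower, and 49 in the interaction, which had 16 genes with a pseudocount of 64 and 10 without the trend. The class II median was -2.19 with the probe sets brightest on the unirradiated arrays. With the replicate number as a block 70 genes were called, 17 higher and 53 lower, of which 65 were among the 154, and 3 in the interaction. The deviations of same-numbered samples correlated at -0.095 between the unirradiated genotypes and at -0.202 to 0.156 over all 13 pairs, 3 of them above 0.1, so the numbers were not taken to pair the samples. Of the 154 genes, 20 were called under each of the 24 alternatives. The signs of the 154 could not change when 1 array was left out, because their groups did not overlap. With the mean of probe sets 0 changed sign. With a pseudocount of 64, 122 of the 154 were still called. Those that lost the call included Reg3g, St3gal4, Ccl5, Sprr1a, Gzmb, Nfil3, Hal and Oasl2. Without the trend 99 of the 154 were still called. Among those that lost it were Reg3g, Lrg1, St3gal4, Ccl5, Il18bp, Sprr1a, Cxcl10, Oasl2, Gbp2, Psme1, Ptger3, Clps, Cyp2c65 and Pm20d1. Differences that changed sign were all of genes not called. With the mean of probe sets these were Dclk1 (-0.15), Nrp1 (-0.12), Sc5d (0.15), Xist (-0.92) and Znrf3 (-0.16). Leaving out 1 array took Dclk1 between -0.15 and 0.77, Nrp1 between -0.16 and 0.71, Pdgfb between -0.23 and 0.18, Pdgfra between -0.45 and 0.22, and Pou2f3 between -0.034 and 0.65. The cause was not tested. Dim signals limit the size of falls to below the array median and of rises from below it.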
